A study of Mus musculus with 2 samples.

Results

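Arid1b ChIP-seq of mouse dental mesenchyme cells gave a peak list in which most intervals were short and a small group was much wider. The broad Arid1b domains described here are the autosomal intervals of that list with a width of at least 1000 bp. The members were chosen by width alone, which is itself a readout of the experiment. The rule took 372 of 8273 autosomal peaks, or 4.50%, out of 8318 peaks in the whole list. The remaining 7901 autosomal peaks are called narrower peaks below. A further interval of 1 kb or more lay on the X chromosome and is not a member.

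The study asked how Arid1a acts with Plagl1 and Hedgehog signalling when progenitors of the tooth root stop dividing, and its design text names a Gli1-CreER;Arid1a fl/fl conditional knockout. The samples described here carry no such allele. One library was precipitated with an Arid1b antibody from Cell Signaling and the other is input chromatin labelled with no antibody, so the target named in the title (Arid1a) and the target of the antibody (Arid1b) differ. Both came from primary dental mesenchyme cells grown in medium with 10% serum, taken from the root end of the first lower molars of wild-type C57BL/6 mice between postnatal days 3.5 and 7.5. The number of animals behind the cultures is not given in the sources used here. With 1 library in each group there was no replicate check, so no p-value for a condition is given and every interval below covers counting only.

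Arid1b and Arid1a are alternative large subunits of the BAF form of the SWI/SNF complex, which uses ATP to slide or evict nucleosomes and so opens promoters and enhancers. A cell's BAF complex carries either Arid1a or Arid1b. Genes of developmental transcription factors often sit in long CG-rich stretches of low DNA methylation, where chromatin marks can spread over several kilobases, while housekeeping genes usually have a compact CG-rich promoter. In the face, the Dlx, Msx, Lhx, Pax9 and Barx1 homeobox and paired-box factors pattern the jaw mesenchyme and set where teeth form.

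The promoters below are shown because they belong to the genes on which the comparison of broad domains turns. They are the 250 bases before an annotated start site from RefSeq (GRCm38.p6, the assembly that mm10 names), 5′ to 3′ on the gene's own strand, with every CG dinucleotide in capitals. Igf2bp3 (chr6:49214955-49215204, minus strand) lies under the widest domain. Sp9 (chr2:73271676-73271925, plus strand), Lhx8 (chr3:154330561-154330810, minus strand), Msx1 (chr5:37824586-37824835, minus strand) and Otx2 (chr14:48667645-48667894, minus strand) are transcription factor genes whose start lies inside a broad domain. Of these, Otx2 was picked with its values known. Ppia (chr11:6415617-6415866, plus strand) is a housekeeping gene with a broad domain. Atp5b (chr10:128083057-128083306, plus strand) is a contrast chosen after its values were seen: a housekeeping gene whose peak had a high fold over input (11.3) but was only 874 bp wide.
Igf2bp3: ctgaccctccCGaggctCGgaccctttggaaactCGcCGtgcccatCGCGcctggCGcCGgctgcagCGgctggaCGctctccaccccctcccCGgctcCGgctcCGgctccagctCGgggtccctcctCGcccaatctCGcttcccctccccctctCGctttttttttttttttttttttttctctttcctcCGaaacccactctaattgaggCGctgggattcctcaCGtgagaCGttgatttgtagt
Sp9: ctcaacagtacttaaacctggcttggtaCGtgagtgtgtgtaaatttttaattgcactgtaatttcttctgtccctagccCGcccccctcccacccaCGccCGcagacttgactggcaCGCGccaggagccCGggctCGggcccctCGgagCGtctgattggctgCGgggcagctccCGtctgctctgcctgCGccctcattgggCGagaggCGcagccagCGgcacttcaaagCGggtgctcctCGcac
Lhx8: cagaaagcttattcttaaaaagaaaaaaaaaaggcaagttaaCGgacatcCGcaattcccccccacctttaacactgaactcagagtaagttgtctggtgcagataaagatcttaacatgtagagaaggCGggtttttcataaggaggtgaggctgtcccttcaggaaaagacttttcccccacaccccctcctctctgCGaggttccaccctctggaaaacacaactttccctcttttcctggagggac
Msx1: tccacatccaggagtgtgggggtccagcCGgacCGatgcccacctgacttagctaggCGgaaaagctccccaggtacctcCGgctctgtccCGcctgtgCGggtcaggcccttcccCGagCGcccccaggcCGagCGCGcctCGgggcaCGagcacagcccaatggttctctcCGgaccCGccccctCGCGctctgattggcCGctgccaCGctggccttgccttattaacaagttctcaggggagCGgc
Otx2: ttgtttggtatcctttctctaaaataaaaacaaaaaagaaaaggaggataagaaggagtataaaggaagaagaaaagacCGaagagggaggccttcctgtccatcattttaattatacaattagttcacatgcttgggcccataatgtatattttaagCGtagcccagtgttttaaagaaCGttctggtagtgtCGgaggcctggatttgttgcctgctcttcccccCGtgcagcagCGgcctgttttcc
Ppia: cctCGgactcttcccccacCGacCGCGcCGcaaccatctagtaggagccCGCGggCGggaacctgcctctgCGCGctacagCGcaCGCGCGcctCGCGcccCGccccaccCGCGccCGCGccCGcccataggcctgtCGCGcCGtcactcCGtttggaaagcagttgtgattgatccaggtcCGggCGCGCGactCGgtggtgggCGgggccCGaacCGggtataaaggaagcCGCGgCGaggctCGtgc
Atp5b: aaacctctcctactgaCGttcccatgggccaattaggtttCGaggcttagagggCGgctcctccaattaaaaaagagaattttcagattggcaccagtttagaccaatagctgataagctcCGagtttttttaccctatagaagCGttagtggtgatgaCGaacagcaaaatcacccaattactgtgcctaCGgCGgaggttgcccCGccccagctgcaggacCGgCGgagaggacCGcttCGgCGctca

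These stretches differed widely in base composition. The window of Ppia held 38 CG dinucleotides at 72.4% GC, that of Igf2bp3 21 at 60.4%, that of Msx1 20 at 68% and that of Sp9 18 at 62.4%. The contrast Atp5b held 14 at 51.6%. Lhx8 and Otx2 had few, with 4 at 46% and 6 at 42%. Over 16456 autosomal coding windows of the same length the median was 10 CG dinucleotides (quartiles 3 and 19) and 55.6% GC (quartiles 47.6% and 64%), so the windows of Lhx8 and Otx2 lay below that median and those of the other genes shown lay above it in CG number. A broad domain was therefore seen over start sites with CG-rich and with CG-poor windows among these examples. Otx2 has further annotated starts, whose windows are not shown. The windows of Isl2 (16 at 66.8%) and of the lncRNA gene Gm30177 (17 at 58.4%), also read but not printed, lay above the median in CG number. Base composition was not compared over the whole sets, because the promoter table held a start for only 74.4% of the coding genes with a broad domain and 68.5% of the transcription factor list, and such a comparison would be void.

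The domains were between 1000 and 8992 bp wide with a median of 1398 bp (quartiles 1161 and 1930 bp), against a median of 298 bp in the narrower peaks. They covered 0.636 Mb, which is 18.4% of the 3.47 Mb under all autosomal peaks. Most lay near the lower end of the range: 213 were under 1500 bp, 86 reached 2000 bp and 6 exceeded 5000 bp. The 3 members just inside the threshold were 1000 bp wide in Zfand3 (fold 7), 1002 bp in Sdc1 (2.65) and 1004 bp near Olig3 (4.85). The 3 peaks just outside it were 999 bp wide in Asap1 (3.87), 998 bp in Eya1 (4.95) and 996 bp over Ccl25 and Elavl1 (4.45). The folds of these 3 outside peaks lay within the range of the 3 inside. By chromosome, the broad share of peaks ran from 2.91% on chromosome 15 to 8.06% on chromosome 13.

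The authors' fold is the ratio of ChIP to expected signal at the highest point (summit) of a peak, and it comes from the same contrast as the width, so it only describes the members. Its median was 5.26 in broad domains (quartiles 4.34 and 6.20, range 2.22 to 17.1) and 3.72 in narrower peaks (quartiles 3.28 and 4.23, range 1.37 to 11.8). The median pileup, the number of ChIP fragments stacked at the summit, was 54 against 38. At this depth the fold of a single domain is loose: in 242 of 372 domains (65.1%) the counting interval included the median of all broad domains. It lay wholly above the narrower median in 58.6% of broad domains and in 8.18% of narrower peaks. The expected level at the summit, taken from input or genome background, had a median of 9.15 in broad domains and 8.84 in narrower peaks, and it was at the genome background of 8.68 in 44.1% and 48.9%. The most extreme expected levels, up to 268, were in narrower peaks, and no broad domain exceeded 18.3.

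**Figure D1:**
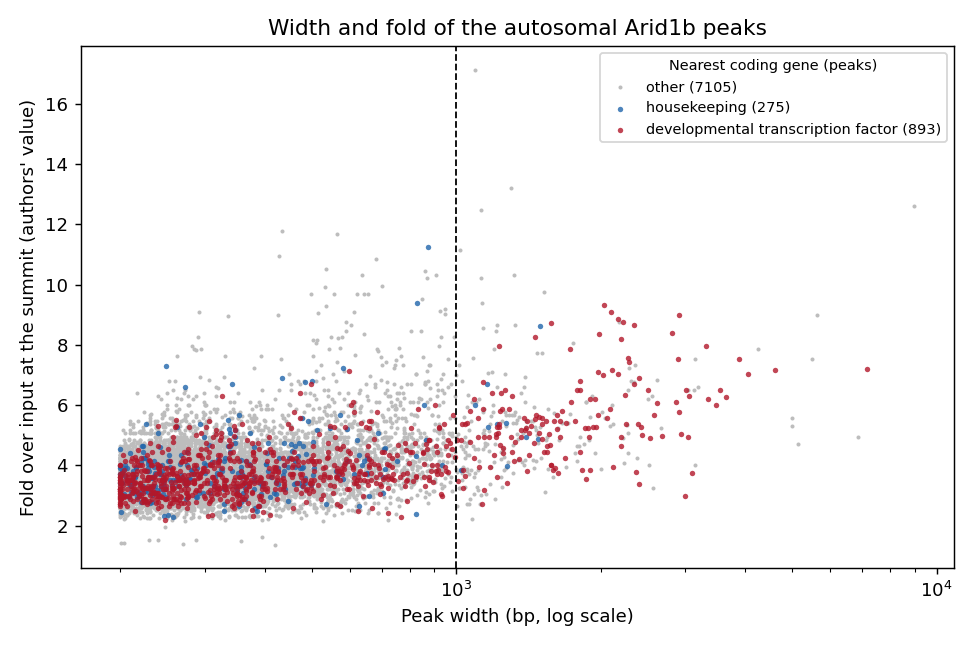
Each point is an autosomal Arid1b peak, with its width in bp on a log axis and the authors' fold over input at the summit on the vertical axis. Red points have a developmental transcription factor gene as nearest coding gene and blue points a housekeeping gene, and the dashed line marks 1000 bp. To the right of it lie 157 red and 10 blue points, and no blue point reaches 1500 bp.

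Width and fold picked out different genes. Igf2bp3, an RNA-binding protein of embryonic tissue, had the widest domain of the list, 8992 bp at chr6:49214745-49223736 with a fold of 12.6 (95% counting interval 10.5 to 15). Next came Sp9, a zinc finger factor of limb and forebrain, at 7170 bp (7.21, 5.65 to 9.06), and the nuclear lncRNA Neat1, which builds paraspeckles, at 6850 bp (4.93, 3.76 to 6.35), where the nearest coding gene Frmd8 was 4531 bp away. A domain of 5628 bp at chr6:51178879-51184506 (8.98, 7.21 to 11.1) lay 38451 bp from the nearest coding gene, the predicted Gm38821. Sim1, a basic helix-loop-helix factor of the hypothalamus, had 5516 bp (7.54, 5.92 to 9.47). Others of the 10 widest lay at Vmp1, a membrane protein of autophagy (5157 bp, 79 bp from the gene), Tnrc18 (4997 bp), Tsc22d2 (4991 bp) and the lncRNA 2810410L24Rik (4245 bp, 7.87). The folds of the domains named here ran from 4.71 to 12.6.

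The 10 highest folds were mostly in much shorter domains. Sp2, a zinc finger factor, had a fold of 17.1 (14.6 to 19.9) in 1092 bp, and Rnf44, a RING finger protein, 13.2 (11 to 15.7) in 1303 bp. Bcl6, a transcriptional repressor best known from germinal centre B cells, had 12.5 in 1124 bp, and Flcn, the folliculin gene of nutrient signalling, 11.2 in 1017 bp. Prdm10 (10.3), Fam53c (10.2), the stress granule gene G3bp1 (9.77) and Prdm15 (9.40) followed with widths of 1317, 1129, 1522 and 1134 bp. Tlx3, a homeobox factor of sensory neurons, had 9.32 in 2026 bp and was the only gene of the transcription factor list among the 10. Igf2bp3 was the only domain in both top 10s.

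The question set for the members was which genes they lie at, with developmental transcription factor genes set against housekeeping genes. The transcription factor list held 403 autosomal genes of 25 families, or 1.95% of 20661 autosomal coding genes, and the housekeeping list 526 genes, or 2.55%. A transcription factor gene was the nearest coding gene of 157 of 372 broad domains, 42.2% (95% exact binomial interval 37.1 to 47.4), spread over 109 genes. In narrower peaks it was 736 of 7901, 9.32% (8.68 to 9.98). Where peaks closer than 500 bp were first merged, it was 208 of 856 broad intervals, 24.3% (21.5 to 27.3), and 5.76% of narrower ones. A housekeeping gene was nearest in 10 broad domains, 2.69% (1.30 to 4.89), and in 265 narrower peaks, 3.35% (2.97 to 3.77). The intervals of broad and narrower peaks lay far apart for transcription factor genes and overlapped for housekeeping genes. They treat each peak as independent, although several peaks can share a gene, so they may be too narrow.

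The share at transcription factor genes was higher in wider classes. It was 7.33% under 250 bp, 9.12% from 250 to 499 bp, 12.8% from 500 to 749 bp and 16.2% from 750 to 999 bp. Among broad domains it was 30% below 1500 bp, 58.9% from 1500 to 1999 bp and 58.1% from 2000 bp, so the last 2 classes did not differ beyond their intervals. All 10 domains nearest a housekeeping gene were under 1500 bp: none of the 159 wider ones was (0%, upper limit 2.29%). Of the 100 widest domains, 59 lay nearest a transcription factor gene and 0 nearest a housekeeping gene, while of the 10 widest only 2 lay nearest a transcription factor gene, Sp9's among them. Sim1 and Sim2, outside the list and named after their values were seen, are also genes of developmental factors, so the list does not hold every such gene.

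**Figure D2:**
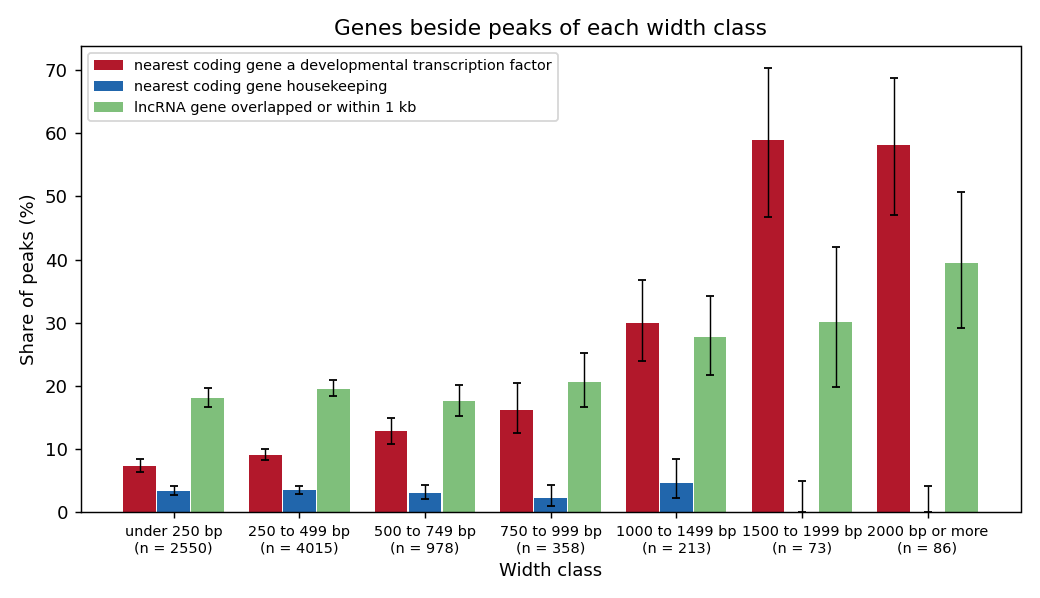
Bars give the share of peaks (%) in each of 7 width classes whose nearest coding gene is in the transcription factor list (red) or the housekeeping list (blue), and the share with a lncRNA gene overlapped or within 1 kb (green). Error bars are exact binomial 95% intervals of counting. The red bars run from 7.33% in the narrowest class to 58.1% in the widest, while the blue bars stay below 5%.

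Fold and expected level also differed between broad and narrower peaks, and the shares within parts of their range are given here. Among narrower peaks with a fold of at least 5.26, the broad median, 33 of 479 (6.89%, 4.79 to 9.54) lay nearest a transcription factor gene. Among broad domains the share was 46.2% at or above that fold and 38.2% below it. The median fold above this bound was 6.20 in broad and 5.87 in narrower peaks, so the folds were not matched. Where the expected level was at the genome background, it was 47.0% in broad domains and 10.7% in narrower peaks. The part of fold and input in the share was not tested. Distances were taken from the whole interval, and a wide interval meets more bases; measured from the summit to a gene boundary alone, the share was 41.1% in broad domains and 9.16% in narrower peaks.

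Broad domains lay farther from gene ends than narrower peaks. The summit was within 1 kb of either annotated boundary of a coding gene in 144 domains, 38.7% (33.7 to 43.9), against 60.8% (59.7 to 61.9) of narrower peaks. Among domains of 2000 bp or more it was 20.9%. Within 5 kb the share of broad domains was 79.3%. Some part of the interval overlapped a coding gene in 76.6% of broad domains and 79.7% of narrower peaks, and 20 domains (5.38%) lay beyond 10 kb from any coding gene, against 6.40%. So the summits of broad domains sat further from the boundaries, but the domains were about as often over or near a gene.

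Where a start site could be placed inside a domain, its position was read from the same RefSeq table, which covers 18 of the 19 autosomes used here and not every gene, so these are lower bounds. A coding start lay inside 85 of 359 broad domains (23.7%) and 12.6% of narrower peaks. A wide interval has more bases that can hold a start, yet the share did not follow width throughout: it was 27.5% from 500 to 749 bp, 32.4% from 750 to 999 bp, 31.6% in broad domains below 1500 bp, 12.7% from 1500 to 1999 bp and 13.4% from 2000 bp. There were 86 pairs of a gene and a domain, since 1 domain held the starts of both Zbtb1 and Zbtb25. The domain reached farther into the gene than upstream in 53 pairs (61.6%, 50.5 to 71.9), and the summit lay a median of 100 bp after the start (quartiles -172 and 360 bp). Narrower peaks had a like layout, with 667 of 1003 pairs reaching farther into the gene (66.5%, 63.5 to 69.4) and a median summit 64 bp after the start. In the 17 pairs of the transcription factor list the summit lay within 250 bp of the start in 2 (11.8%), with a median of 349 bp after it. In 67 pairs outside both lists it did so in 39 (58.2%). Widths were not matched between these groups, and a wide domain leaves more room for a distant summit. The part of width in this contrast was not tested. Otx2 and Zeb2 each entered the 17 pairs with more than 1 domain.

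Single genes show the range of these layouts. Sp9's domain began 630 bp before the start and ran 6539 bp into and past the gene, with the summit 2718 bp downstream. Msx1, a homeobox factor needed for tooth buds to progress, had 320 bp before and 2770 bp after its start. Tal1, a basic helix-loop-helix factor of blood and endothelium, had 192 and 2810 bp. The domain of Igf2bp3 went the other way, with 8782 bp before the start and 209 bp after it. Evx1, a homeobox factor of the posterior embryo that was picked after its values were seen, and Isl2, a LIM homeobox factor of motor neurons, had 29 and 26 bp after the start, so nearly all of those domains was upstream. Lhx8, a LIM homeobox factor of jaw mesenchyme, was nearly centred, with 2211 bp before and 1832 bp after.

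**Figure D3:**
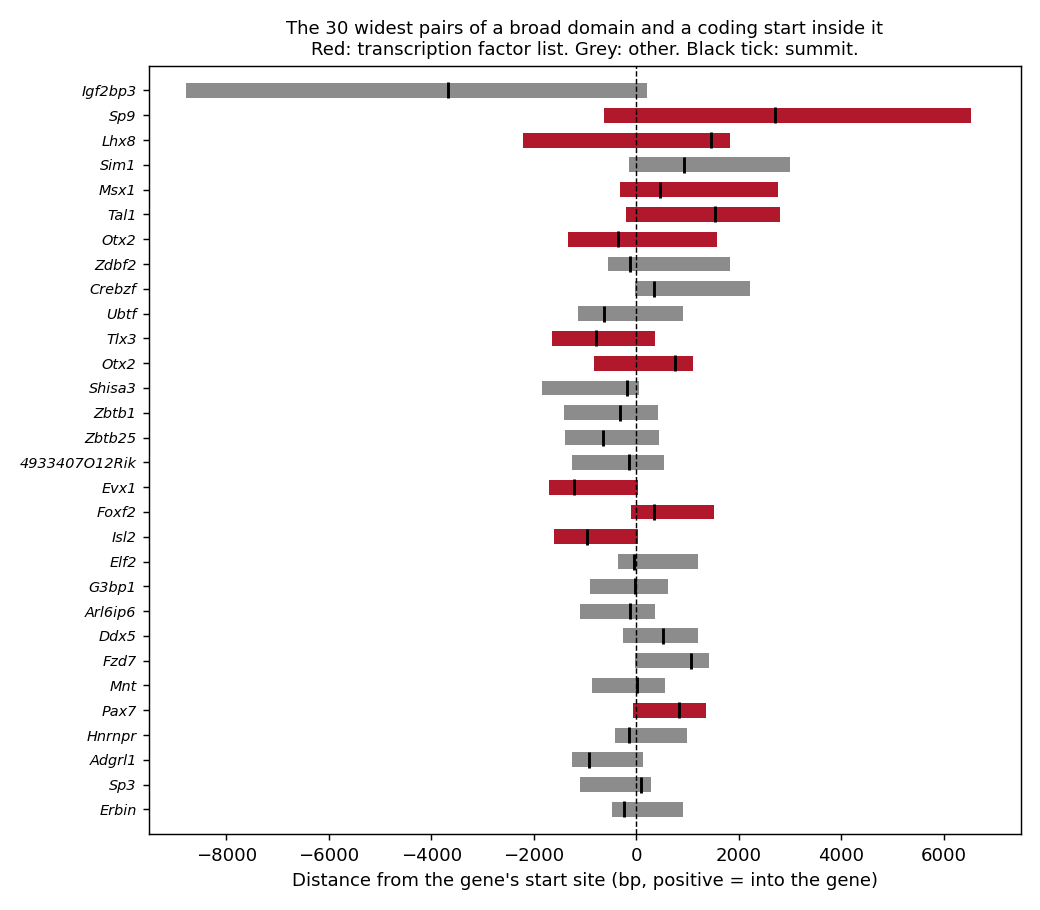
Each bar is a broad domain drawn against the start site of a coding gene inside it (dashed line, bp, positive into the gene), for the 30 widest pairs; the tick is the summit. Red bars are genes of the transcription factor list and grey bars other genes; Otx2 appears with a pair of domains at different start sites. Sp9 runs 6539 bp downstream, Igf2bp3 runs 8782 bp upstream, and the summits of the red bars stand away from the line, as do those of some grey bars.

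Counted by gene, a gene was taken to hold a peak that overlapped it or lay within 1 kb. Of 5670 autosomal coding genes with any peak, 293 held a broad domain, a background of 5.17%. For the transcription factor list it was 101 of 227 genes with a peak (44.5%, 37.9 to 51.2), and these made up 34.5% of the 293. For the housekeeping list it was 8 of 236 (3.39%, 1.47 to 6.57), close to the 3.53% of 5207 genes outside both lists. The widest peak of a gene had a median width of 782 bp in the transcription factor list, 338 bp in the housekeeping list and 342 bp over all coding genes with a peak. A peak of any width was present at 44.9% of housekeeping and 56.3% of transcription factor genes, against 27.4% of all autosomal coding genes. Both lists stood above that share, and they lay much closer in having a peak than in having a broad one. They did not lie close in peaks per gene. Over all autosomal peaks, 893 lay nearest 242 transcription factor genes and 275 nearest 213 housekeeping genes. A gene with more peaks has more chances to hold a broad one, and the part of this in the shares was not tested. The other 126 transcription factor genes with a peak held narrower peaks only, and 176 had none.

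Among the 15 transcription factor genes with the widest domains, besides Sp9, several pattern the jaw and teeth. Lhx8 had 4044 bp (fold 7.02, 5.47 to 8.89), Dlx1 3544 bp (6.50, 5.01 to 8.31), Dlx5 3472 bp (6.00, 4.58 to 7.72), Barx1 3339 bp (6.22, 4.80 to 7.92) and Dlx2 3315 bp (7.95, 6.29 to 9.93). Msx1 had 3091 bp at a low fold of 3.74 (2.82 to 4.86). The Dlx genes give the jaw its upper and lower identity, and Barx1 marks the mesenchyme of molars.

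Others of the 15 are known best from other organs. Foxa1, a pioneer factor of endoderm, had 3882 bp (7.54), Zic2, a factor of forebrain and midline, 3650 bp (6.26), and Sall3, a zinc finger factor of nerve and limb, 3051 bp (6.30). Tal1 had 3003 bp (6.51), and Gata6, a factor of heart and gut, 2907 bp with a fold of 8.98 (7.21 to 11.1), the highest of the 15. Meis2, a homeobox partner of Hox proteins, had 2943 bp (5.06), and Irx5, a homeobox factor of heart and limb, 2988 bp with the lowest fold, 2.98 (2.24 to 3.89). The interval of Irx5 lay wholly below that of Gata6, but these are the extremes of the 15. The intervals cover the count of ChIP fragments and hold the expected level fixed. That level was 16.8 at Irx5 and 8.68 at Gata6, and its own error is not covered.

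Several genes held more than 1 broad domain: 39 coding genes held at least 2, of which 24 were in the transcription factor list, and 7 held at least 3. Of these 7, 5 were transcription factor genes. Msx1 held domains of 3091, 2364 and 1117 bp, with folds between 3.74 and 3.94. Pax9, a paired-box factor needed for teeth, held 2679, 2404 and 2207 bp. Runx2, the master factor of bone and a tooth gene, held 2861, 1139 and 1089 bp, and Isl2 held 2809, 1625 and 1486 bp. Gata4, a heart factor, held 1660, 1226 and 1190 bp. The others were Vmp1 and Zdbf2, an imprinted growth gene. Domains at most 10 kb apart formed 57 runs with 125 of the 372 domains (33.6%). In 37 of the 57 runs a transcription factor gene was nearest to at least 1 of the domains. A run has more than 1 chance to be counted so, and this count cannot be set against the 42.2% of single broad domains. The run with the most broad sequence lay between Dlx1 and Dlx2 at chr2:71530250-71546315, with 4 domains covering 11105 bp of 16066 bp and folds from 4.93 to 7.95. Domains in a run share their genes and are not independent of each other.

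By family, broad domains were spread over 23 of the 25 families of the list. All 6 Dlx genes had a peak and 4 a broad domain (Dlx1, Dlx2, Dlx5 and Dlx6). The Lhx and Isl family had 7 genes with one of 9 with a peak, T-box factors 5 of 7, Gata factors 3 of 4 and Sox factors 3 of 4. Paired-type homeobox genes had 9 of 15, forkhead genes 14 of 26, the Osr, Sall and Prdm group 6 of 11 and the Msx, Barx and other NK-like homeobox genes 15 of 28. Hox genes reached 7 of 23 (Hoxa3, Hoxa4, Hoxa5, Hoxa10, Hoxb2, Hoxd3 and Hoxd10), but Hoxa3 shares one domain with Hoxa5 and another with Hoxa4. Shares were lower among basic helix-loop-helix factors (4 of 14, with 57 in the family), nuclear receptors (3 of 12) and Zic and Gli factors (2 of 8). The Nfi family had a peak at all 4 genes and Tead and Lef/Tcf factors at 5 of 8, with no broad domain in either. With so few genes in a family the intervals are wide, and families were not tested against each other.

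The remaining families were the sine oculis homeobox genes (2 of 5 genes with a peak), Pax (2 of 7), Irx, Meis, Pbx and Tgif (4 of 10), POU, Onecut and related homeobox genes (3 of 9), Runx (1 of 3), Tfap2 (2 of 3), Snail and Zeb (1 of 3), Ebf (1 of 3), Mef2 and Mitf (1 of 2) and the group of Sp7, Sp8, Sp9 and Klf4 (2 of 6). A few members are no classical transcription factors: Id3 binds such factors and blocks them.

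The 8 housekeeping genes came from 2 of the 11 housekeeping groups. Of 14 common reference genes with a peak, 5 held a broad domain (35.7%, 12.8 to 64.9), and their widest peaks had a median of 718 bp. The interval of this small group lay above the 5.17% of all coding genes with a peak, unlike that of the whole housekeeping list. Among the 5 were Actb, cytoplasmic actin (1482 bp, fold 4.86), Tubb5, a tubulin (1276 bp, 3.99), and Ppia, cyclophilin A (1219 bp, 5.37). Of 31 translation factor genes, 3 did: Eif4a1, the RNA helicase of initiation (1268 bp, 5.39), Eef1a1, the elongation factor (1163 bp, 5.28), and Eif2ak3 (1161 bp, 6.71), a stress kinase that the list took in by its symbol. Each of the 8 was below 1500 bp. Actb held a pair of broad domains and the others 1 each.

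No broad domain lay at the other 9 housekeeping groups. These had peaks at 51 cytosolic ribosomal protein genes, 29 mitochondrial ribosomal genes, 17 proteasome subunits, 25 respiratory chain and ATP synthase genes, 14 tRNA synthetases, 10 RNA polymerase subunits, 27 spliceosome genes, 11 chaperonin and coatomer genes and 7 proton pump genes. For the 51 ribosomal protein genes a count of 0 allows a share of up to 6.98% by the exact interval. Their widest peaks had a median width of 318 bp. Atp5b, the ATP synthase gene shown above, passed most broad domains in fold (11.3, 9.25 to 13.6) at a width of 874 bp, so a high summit did not always go with a broad interval.

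**Figure D4:**
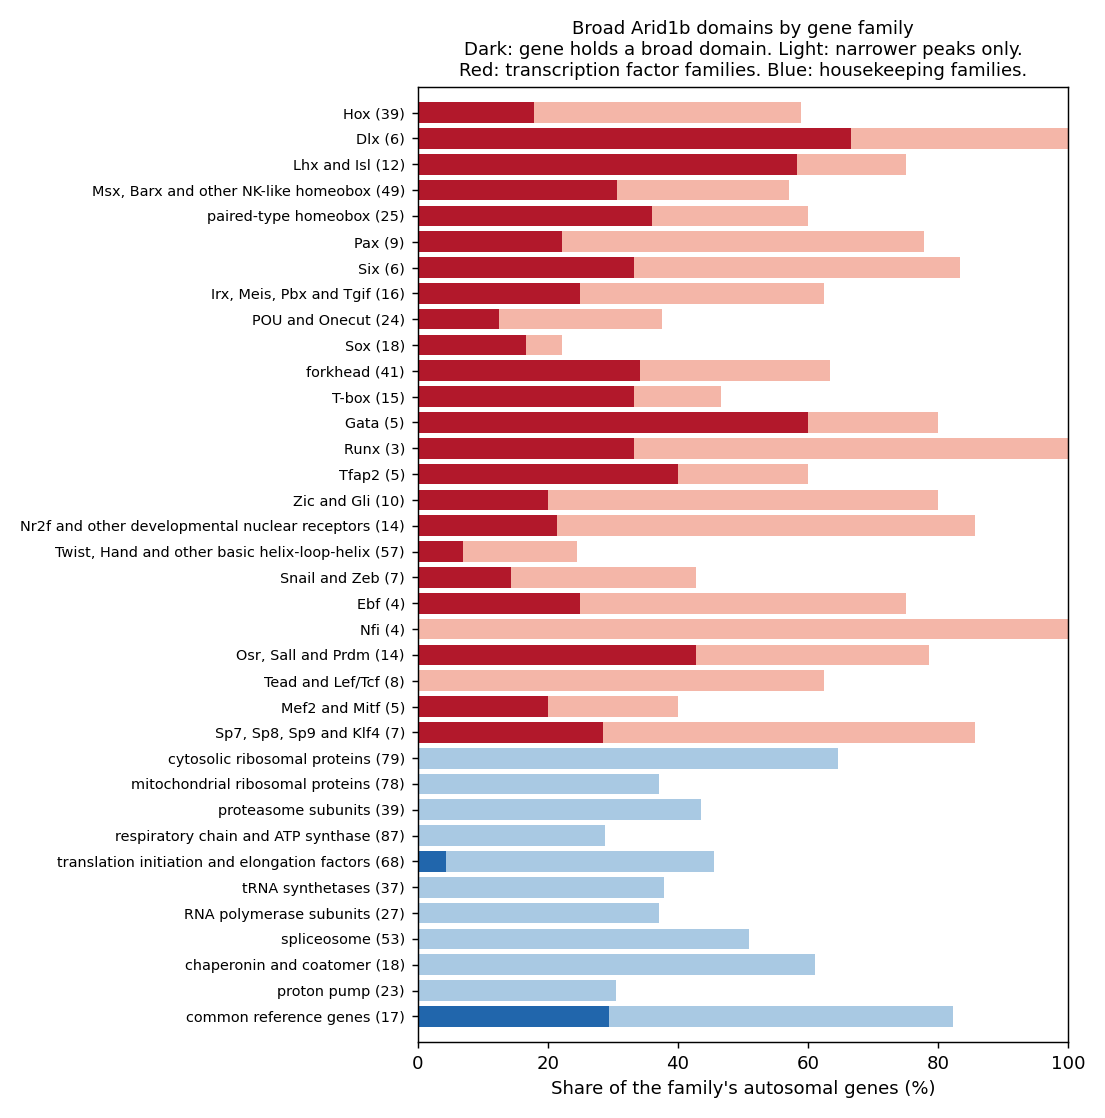
Each bar is a gene family with its number of autosomal genes in brackets, and the axis gives the share of those genes (%). The dark part holds a broad domain and the light part narrower peaks only, with transcription factor families in red and housekeeping families in blue. Dark parts appear in 23 of 25 red bars and in 2 of 11 blue bars.

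The cells were labelled dental mesenchyme, and the peaks at marker genes were read against that label. A peak marks bound chromatin and not expression. Of 9 mesenchyme markers 8 had a peak and 6 a broad domain (Lhx8, Dlx1, Barx1, Dlx2, Msx1 and Pax9). Of 6 epithelial markers 1 had a peak, and it held a broad domain. None of the 5 endothelial, 5 blood and immune and 4 autosomal nerve and glia markers had a peak. Over all autosomal coding genes 27.4% had one, and 0 of 4 or 5 markers in a group cannot be told from that share. The wider dental mesenchyme list had 22 of 26 genes with a peak and 15 with a broad domain (68.2%, 45.1 to 86.1), and a median widest peak of 1880 bp. Besides those named they included Dlx5, Dlx6, Runx2, Alx1, Alx4, Osr2, Tfap2a and Tfap2b. All 15 are also in the transcription factor list, so this count is not independent of that list. The wider lists of epithelium, endothelium, blood and nerve had 3 of 14 (21.4%), 2 of 15 (13.3%), 0 of 14 and 1 of 14 (7.14%) genes with a peak, read against the same 27.4%. Among these lists 1 gene of the epithelial list was the only one with a broad domain.

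Signalling and differentiation lists held between 0 and 3 genes with a broad domain each, read against 5.17% of all coding genes with a peak. The share of genes with a peak was 22.2% in the Hedgehog list (2.81 to 60), 27.3% in the Wnt list (6.02 to 61), 15% in the TGF-beta and BMP list (3.21 to 37.9), 18.8% in the YAP/TEAD list (4.05 to 45.6) and 12.5% in the Notch list (0.316 to 52.7). Except in the Wnt list, these intervals included 5.17%. The Wnt interval cleared it narrowly, on 3 of 11 genes, and several small lists were read with no adjustment for their number. In the Hedgehog list 9 of 22 genes had a peak and 2 a broad domain: Gli3, the main repressor of the pathway (1144 bp, fold 3.18), and Ptch1, its receptor and target (1076 bp, 3.85, 2.79 to 5.19). Of the genes in the study's title and design, Arid1a itself held 2 broad domains among 4 peaks, the wider of 1349 bp at chr4:133756522-133757870 over the gene's edge with a fold of 5.6 (4.25 to 7.26). Arid1b had 3 peaks, the widest of 930 bp (4.40, 3.31 to 5.73), and no broad domain. Plagl1, a zinc finger factor of imprinted growth control, and Gli1, the Hedgehog activator and readout, had no peak within 1 kb, and their nearest broad domains were 6219618 and 1567980 bp away. The other subunit with a broad domain among 20 SWI/SNF genes with a peak was Bicral (1442 bp, 5.47).

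In the Wnt list 3 of 11 genes with a peak held a broad domain: the ligand Wnt5a (1463 bp) and the receptors Fzd7 (1447 bp) and Fzd2 (1109 bp), with folds from 3.17 to 4.18. In the TGF-beta and BMP list it was 3 of 20: the inhibitory Smad7 (2663 bp, 5.22), the BMP target Id3 (1308 bp, 4.44) and the corepressor Ski (1051 bp, 3.80). In the YAP/TEAD list it was 3 of 16: Ajuba (1200 bp) and Lats2 (1193 bp), of the Hippo kinase branch, and the matrix gene Ccn2 (1030 bp, 6.82), a YAP target. Hes1, the Notch target, was 1 of 8 (1088 bp, 6.20), and of the FGF list 0 of 11.

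Cell cycle genes were listed by role. Of 18 arrest genes with a peak, 3 held a broad domain: the CDK inhibitors Cdkn1b (2508 bp, fold 6.20, 4.74 to 7.96, 520 bp from the gene) and Cdkn1a (1310 bp, 5.41), and the stress gene Gadd45g (1689 bp, 3.96). Of 18 genes of S and G2/M phase with a peak, none did (upper limit 18.5%), and their widest peaks had a median of 307 bp. These intervals overlap that of the arrest genes (3.58 to 41.4%), so a difference between the lists was not detectable at these numbers. The contractile and matrix list had 3 of 18, all of the actin cytoskeleton: Cald1 (1454 bp), Myh9 (1390 bp) and Tpm4 (1315 bp). Of 24 immediate early and AP-1 genes with a peak, 2 did: Fosl2 (1248 bp, 3.26, with a high expected level of 16.8) and Ier5 (1005 bp). The odontoblast and mineralisation list had 2 of 8, with Runx2 among them, and the dental follicle and periodontal ligament list 0 of 1.

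**Figure D5:**
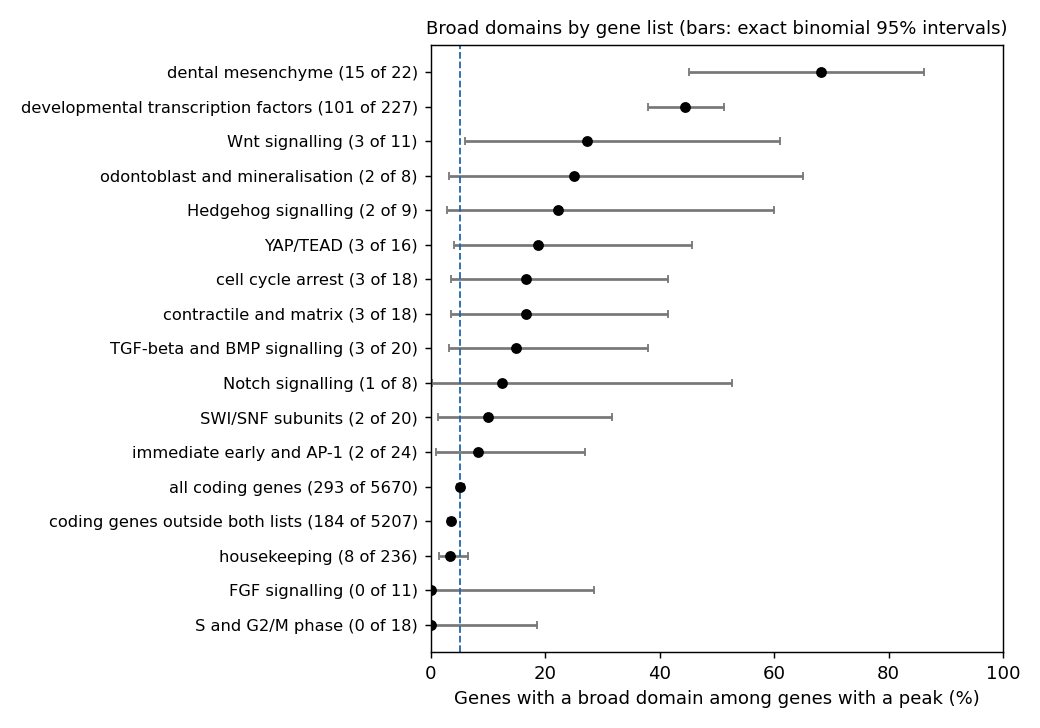
Points give the share of genes with a peak that hold a broad domain (%), by gene list, with both counts in brackets and exact binomial 95% intervals as bars. The dashed line is the share over all coding genes, 5.17%. The dental mesenchyme list (68.2%) and the transcription factor list (44.5%) stand apart from the line. The Wnt interval, from 3 of 11 genes, lies just above it, while those of the other pathway lists reach it. No adjustment was made for the number of lists.

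Long noncoding RNA genes lay beside broad domains more often than beside narrower peaks. Of 1114 autosomal lncRNA genes with a peak in them or within 1 kb, 112 held a broad domain, a background of 10.1%. Of the 372 domains, 115 overlapped such a gene or lay within 1 kb (30.9%, 26.3 to 35.9), against 18.9% (18.1 to 19.8) of narrower peaks. With overlap alone it was 21.5% against 12%. The measure uses the whole interval, which is longer in broad domains, and the part of that length in the difference was not tested. Of the 115, 41 were also within 1 kb of a transcription factor gene. Over all 372 domains, 128 had such a gene as nearest coding gene within 1 kb, a like share. No coding gene lay within 1 kb of 28 of the 115, nor of 365 of the 1495 narrower peaks beside a lncRNA gene, again a like share.

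After Neat1, the widest domains beside lncRNA genes were mostly shared with a coding gene already described. Gm31365 lies with Tnrc18, AI606473 with Lhx8, Gm33769 with Zic2 and Gm36606 with Barx1. Gm30177 shares a domain of 3191 bp (6.61) with Nrn1, a secreted protein of neurite growth. Lhx8 and AI606473 start on opposite strands 261 bp apart, so a signal there cannot be assigned to one of them. By contrast 2810410L24Rik had its start inside its own domain and the nearest coding gene 34393 bp away.

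Further lncRNA genes, named here after their values were seen, include well-studied ones. Malat1, an abundant nuclear RNA and neighbour of Neat1, had 1999 bp with a fold of 3.87 (2.89 to 5.07). Sox2ot, whose gene surrounds Sox2, had 2510 bp (6.51), Gata6os 2907 bp beside Gata6, and Lockd 2508 bp beside Cdkn1b. Fendrr, which starts opposite Foxf1, had 1830 bp (3.86) and Hottip, at the end of the Hoxa cluster, 1434 bp (5.32). Chaserr, a regulator of its neighbour Chd2, had 2615 bp (6.84) at 13974 bp from the coding gene. Dleu2 had 1915 bp (6.30) and the cardiac RNA genes Bvht and Carmn shared 1502 bp (4.23). In the Dlx5 and Dlx6 locus Dlx6os1 met domains of 1865 and 1365 bp.

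RefSeq gave 1005 microRNA hairpins, of which 58 were within 1 kb of any peak and 3 within 1 kb of a broad domain. That is 5.17% of the 58, near the shares over all peaks (4.50%) and all coding genes with a peak (5.17%). Mir21a, a microRNA of growth and stress that shares its locus with Vmp1, lay across the edge of a domain of 1137 bp with a fold of 5.78 (4.38 to 7.5). Mir22 lay 842 bp from a domain of 1246 bp near Tlcd2 (5.48, 4.23 to 6.99). The mature sequences, from RefSeq (GRCm38.p6), are shown so that they can be told apart by their seeds, bases 2 to 8, in capitals.
mmu-miR-21a-5p: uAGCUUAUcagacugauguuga
mmu-miR-22-3p: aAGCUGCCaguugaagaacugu
These 2 seeds differ.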

How the data were processed

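One Arid1b ChIP library and one input library were used, 1 per group. Per the submitters' processing notes, FastQC 0.11.8, Bowtie2 2.2.5, Picard, MACS2 2.1.1 and the build mm10 were used; which tool did what, with which parameters and on how many reads, is not stated there. The deposited peak list gives positions, the authors' fold over input (a linear ratio), −log10 p and −log10 q values, a score and other values such as the summit offset. Peaks were called on the single ChIP library against input, as far as the deposited list's name shows. Fold, p and q describe peaks within this list only. Solving the Poisson formula of MACS2 for the authors' fold and p-value gave the pileup and expected level (largest error 0.000162 in −log10 p), and each fold has an exact Poisson 95% interval of its pileup. It covers counting error only.

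Peaks of at least 1000 bp on 19 autosomes were kept and set against narrower ones. Genes, start sites and microRNAs came from RefSeq tables of GRCm38.p6. The nearest gene was taken from the interval to the gene body. Shares have exact binomial (Clopper-Pearson) 95% intervals; no test was run. Genes named are the 10 widest and 10 highest-fold domains and the widest per list (15 transcription factor, 8 housekeeping and up to 4 for others). Also named are factors with at least 3 domains, the 8 widest lncRNA domains, the 3 peaks on each side of the threshold and the study's own genes. Any other gene was named with its values known, whether or not this is said beside it. Members and lists were chosen with earlier results of these data known. Python 3.11.15, pandas 2.3.3 and scipy 1.17.1 were used, and the recovery was tested on simulated data. Alternatives covered the width, merging, q, input level and distance rules. Some genes that this rule would name are not reported here.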

Additional observations from a re-analysis of the deposited data

How the results depend on the processing

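With a width of at least 750 bp there were 730 domains, of which 29.5% lay nearest a transcription factor gene, 46.0% had the summit within 1 kb of a boundary and 25.9% lay within 1 kb of a lncRNA gene; 7.20% of housekeeping genes with a peak then held one. With at least 1500 bp there were 159, with 58.5% nearest a transcription factor gene, 0% nearest a housekeeping gene, 25.2% at a boundary, and 29.1% of transcription factor and 0% of housekeeping genes with a peak. Merging peaks closer than 500 bp gave 856 domains, by construction, with 24.3% nearest a transcription factor gene (5.76% of narrower intervals), 52.5% at a boundary, 26.1% near a lncRNA gene, and 61.7% of transcription factor and 8.47% of housekeeping genes. Keeping only peaks with input at the genome background left 164 domains and 33.3% of transcription factor genes. Nearest start sites gave 32.3% (7.63% of narrower peaks), from a table with starts of 68.5% of the transcription factor list. A window of 5 kb put 79.3% at a boundary. For lncRNA genes, overlap alone gave 21.5% and a window of 10 kb 49.5%. The cause of shifts with width was not tested. In every alternative run, the transcription factor share was higher in broad than in narrower peaks. No paired analysis was possible because each group has 1 library.
The limits are these: 1 library per group, so no spread between cultures; unknown read totals; a nearest gene is not a target; adjoining domains and paired genes share signal; and the gene lists are incomplete. A median pileup of 54 leaves wide intervals on a single fold.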

Other observations

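Of the 20 domains more than 10 kb from any coding gene, the widest lay on chromosome 6, 38451 bp from Gm38821, and the next at the lncRNA 2810410L24Rik. A second interval near Gm38821 had a fold of 5.23 and lay 50085 bp from it. Others lay 23178 bp from Nr2f2 (fold 3.48), a nuclear receptor of mesenchyme and vessels, 30750 bp from Nfib (4.77), a factor of lung and brain whose family held no broad domain within 1 kb of its genes, and 24146 bp from Igf1r (4.44), a growth factor receptor. A pair lay 61646 and 68007 bp from Ppara (5.07 and 3.92), with the nearest lncRNA gene, D130051D11Rik, 30460 and 25112 bp away. These genes were named after their values were seen.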
